A study of Mus musculus with 90 samples.

Results

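The respiratory chain of the inner mitochondrial membrane and its ATP synthase were followed here through 99 genes with subunit symbols. They came from 55011 symbols in a table of 90 mouse libraries. The members were chosen by symbol. They were the Nduf families A, B, C, S and V, the Sdh subunits, Uqcr, Cox5 to Cox8 and Atp5. The mitochondrial Nd, Co, Atp and Cyt genes were added, and no Cox4 gene was among the members. Of 112 symbols that matched, 13 with -ps in the symbol were dropped. Ndufa11b, Ndufb4c and Ndufs6b of the complex I names and Cox6c2 of complex IV are annotated as processed pseudogenes but stayed in. The 86 nuclear members held 38 genes of complex I, 4 of complex II, 8 of complex III, 19 of complex IV and 17 of complex V, with Ndufa4 and Ndufa4l2 counted in complex IV. The mitochondrial genome carried the other 13, of which 7 belong to complex I, 1 to complex III, 3 to complex IV and 2 to complex V.

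Complexes I and II pass electrons from NADH and succinate to ubiquinone, complex III passes them to cytochrome c, and complex IV passes them to oxygen. Proton pumping by complexes I, III and IV drives ATP synthesis by complex V. Complex II is encoded by nuclear genes alone, whereas the other 4 are built from the products of both genomes. Striated muscle and heart replace several nuclear subunits of complex IV by tissue isoforms: Cox6a2, Cox7a1 and Cox8b stand in for Cox6a1, Cox7a2 and Cox8a.

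Of the libraries, 44 came from mesenchymal stromal cells (MmSCs) sorted from hindlimb muscle as PDGFRa+ and Sca1+, and as CD31-, CD45- and DAPI-, with 1000 cells in each. The others came from 2 ng of whole-tissue RNA: 20 from tibialis anterior (TA), 6 from quadriceps, 12 from heart and 8 from liver. Mutant mice, called floxed here, carried Pdgfra-Cre with both Piezo1 alleles floxed, and WT mice carried the same Cre with intact Piezo1. Piezo1 encodes a mechanically gated cation channel, and Pdgfra marks stromal cells, not muscle fibres, cardiomyocytes or hepatocytes. TA muscle was taken 1, 3 and 7 days after intramuscular cardiotoxin (CTX), a venom toxin that destroys muscle fibres. Hearts were taken 3 days after CTX in skeletal muscle, and quadriceps, hearts and livers came from separate cohorts of uninjured sedentary littermates. MmSCs of both genotypes were taken 1 day after CTX, 1 day after acute exercise (AEX) or from sedentary (SED) mice. MmSCs with WT but no Cre in their library names came from AEX, exercise-trained (EXT) and SED mice 8 to 10 weeks old. Other MmSCs had 25 µM Yoda1, a Piezo1 agonist, for 2 h, with vehicle at 0 h as the control. Further MmSCs had Yoda1 for 4 h and 6 h, with unstimulated cells as the control. Library names gave WT for the vehicle and 2 h cells, and no genotype for the 4 h, 6 h and unstimulated cells. Of 29 groups 24 held 3 libraries. TA at day 1 and liver had 4 per genotype, and Yoda1 at 2 h had 2.

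MmSC libraries held 1806248 to 10258234 counts, TA and quadriceps libraries 4051973 to 10226407, and heart and liver libraries 27461930 to 38376123. Whether replicates are different animals is not stated in the labels; the p-values therefore reflect only how far these samples spread. Piezo1 itself was not called in any comparison of floxed with WT. In MmSCs, its log2 fold change was 0.54 in SED cells (unadjusted p = 0.0129, adjusted p = 0.489, edgeR), 0.40 after AEX and -0.28 after CTX, so 2 of the 3 values go against a loss. In tissues it lay between -0.29 in liver and 0.17 in quadriceps. The counts therefore do not show the knockout, though the loss of floxed exons need not lower a whole gene's count. Levels are CPM, made with the effective library sizes that TMM gave within a fit. A fit held a single cohort or, for comparisons across cohorts, the WT groups compared. Unscaled CPM use plain library totals. Genes were called at an adjusted p under 0.05 in edgeR's quasi-likelihood test, with the adjustment made over all genes tested.

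Several mitochondrial members share sequence with the nuclear genome. A stretch of nuclear chromosome 1 carries pseudogene copies of mitochondrial genes, and the sources used here do not give how reads matching several places were counted. All 50-base stretches of mt-Co2 occur in another gene, as do 99.5% of those of mt-Atp6, 99.9% of mt-Co3, 98.8% of mt-Nd4l and 98.0% of mt-Nd3. The matching windows of mt-Co2 and its copy Gm28661, and of mt-Nd3 and its copy Gm28438, are shown because these members had few counts. Whether the shared sequence accounts for that was not tested. The first pair is identical, and the capital marks the only base that differs in the second pair (mm10, GENCODE M21).
mt-Co2, chrM:7323-7382, plus strand: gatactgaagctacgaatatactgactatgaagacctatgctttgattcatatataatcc
Gm28661, chr1:24615196-24615255, minus strand: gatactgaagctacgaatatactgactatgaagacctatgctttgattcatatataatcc
mt-Nd3, chrM:9459-9518, plus strand: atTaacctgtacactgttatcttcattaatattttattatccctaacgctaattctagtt
Gm28438, chr1:24613060-24613119, minus strand: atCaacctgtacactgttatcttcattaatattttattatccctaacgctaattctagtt

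Summed over all libraries, mt-Nd1 had 22762 counts per base of exon, mt-Co1 11058, mt-Cytb 9761 and mt-Nd5 5899. The members with near-complete copies had far fewer, from 3.70 counts per base in mt-Nd4l to 48.9 in mt-Nd3. Sharing and counts did not always go together: mt-Nd4 shares 62.2% and had 2689. mt-Atp8 shares no such stretch with another annotated gene and had 5.03. It lies between mt-Co2 and mt-Atp6, which both have chromosome 1 copies, Gm28661 and Gm10925. A copy of mt-Atp8 in unannotated sequence between these would be missed. Fold changes of mt-Co2, mt-Co3, mt-Atp6, mt-Atp8, mt-Nd3 and mt-Nd4l rest on few reads. In mt-Co1, 51.1% of 50-base stretches were shared with another annotated gene, whereas mt-Nd1, mt-Cytb, mt-Nd6 and mt-Atp8 shared none. Of 84 nuclear members with a transcript, 39 shared none and 3 shared over 50%: Atp5l, and the annotated pseudogenes Ndufb4c and Cox6c2.

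The promoters of 5 paired complex IV isoforms are shown because the pairs include the largest fold changes of floxed against WT TA at day 3. Cox6a2 is named only. Each runs from 250 bases before to 50 after the RefSeq start (GRCm38.p6), and capitals mark a motif match.
Cox6a1, chr5:115348909-115349208, minus strand: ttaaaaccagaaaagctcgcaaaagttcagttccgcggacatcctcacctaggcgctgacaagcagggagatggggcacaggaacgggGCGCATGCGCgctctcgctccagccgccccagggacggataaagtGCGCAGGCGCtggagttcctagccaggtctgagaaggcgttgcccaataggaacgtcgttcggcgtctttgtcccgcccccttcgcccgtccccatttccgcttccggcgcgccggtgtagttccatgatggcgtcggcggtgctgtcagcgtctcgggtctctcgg
Cox8a, chr19:7217567-7217866, minus strand: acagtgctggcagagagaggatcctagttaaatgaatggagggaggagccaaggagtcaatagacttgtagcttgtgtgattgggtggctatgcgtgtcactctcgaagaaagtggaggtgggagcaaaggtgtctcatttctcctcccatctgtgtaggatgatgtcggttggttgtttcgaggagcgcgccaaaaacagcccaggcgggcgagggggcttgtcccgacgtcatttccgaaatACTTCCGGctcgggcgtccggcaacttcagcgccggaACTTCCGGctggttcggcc
Cox8b, chr7:140900397-140900696, minus strand: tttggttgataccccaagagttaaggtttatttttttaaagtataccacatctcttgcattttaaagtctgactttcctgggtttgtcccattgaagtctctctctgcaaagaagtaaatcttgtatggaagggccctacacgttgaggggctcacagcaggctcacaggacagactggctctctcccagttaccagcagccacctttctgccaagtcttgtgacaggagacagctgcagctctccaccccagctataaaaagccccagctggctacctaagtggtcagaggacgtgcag
Cox7a1, chr7:30183921-30184220, plus strand: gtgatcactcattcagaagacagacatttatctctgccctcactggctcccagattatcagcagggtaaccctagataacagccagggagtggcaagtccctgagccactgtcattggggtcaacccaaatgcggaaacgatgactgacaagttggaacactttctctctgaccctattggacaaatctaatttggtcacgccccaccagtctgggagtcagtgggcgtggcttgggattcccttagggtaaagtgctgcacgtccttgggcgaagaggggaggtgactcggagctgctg
Cox7a2, chr9:79759804-79760103, minus strand: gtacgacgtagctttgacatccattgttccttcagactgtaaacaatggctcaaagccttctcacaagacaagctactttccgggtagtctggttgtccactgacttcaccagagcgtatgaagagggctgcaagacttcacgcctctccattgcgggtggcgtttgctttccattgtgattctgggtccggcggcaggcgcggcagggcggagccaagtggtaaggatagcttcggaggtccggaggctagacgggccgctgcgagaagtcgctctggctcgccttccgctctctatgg

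Motifs were searched on both strands. The motif of NRF1, a regulator of respiratory genes, occurred in 17 of 68 nuclear members with a promoter (25.0%), against 5.19% of 27025 genes. Cox6a1 held it at -162 and -117 from the start. The ETS motif CCGGAAGT occurred in 5 members (7.35%), against 4.31% of genes, and Cox8a held it at -6 and 31. The ERR motif TNAAGGTCA occurred in 3 members (4.41%), against 1.43% of genes, and the MEF2 motif in 1 (1.47%), against 4.23% of genes. Cox7a1, Cox8b and also Cox7a2, the partner of Cox7a1, held none of the 4 motifs in these windows. These matches are a description of the letters searched, and binding sites with other letters would be missed.

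Heart carried the highest share of respiratory chain transcripts and MmSCs the lowest. In uninjured hearts, nuclear members took 6.60 ± 0.331% of all counts in floxed and 6.64 ± 0.0382% in WT mice (SD, n = 3 each). Mitochondrial members took 12.2 ± 0.600% in floxed and 12.1 ± 1.06% in WT hearts. In quadriceps the nuclear share was 3.34 ± 0.111% in floxed and 3.44 ± 0.0936% in WT mice, and the mitochondrial share was 6.32 ± 0.322% in floxed and 6.27 ± 0.233% in WT mice. In liver the nuclear share was 1.42 ± 0.089% in floxed and 1.57 ± 0.116% in WT mice (n = 4 each), with overlapping libraries. Over the 44 MmSC libraries, nuclear shares ran from 0.418% to 1.24% and mitochondrial shares from 0.372% to 1.01%. Groups of separate cohorts differ in more than tissue.

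**Figure D1:**
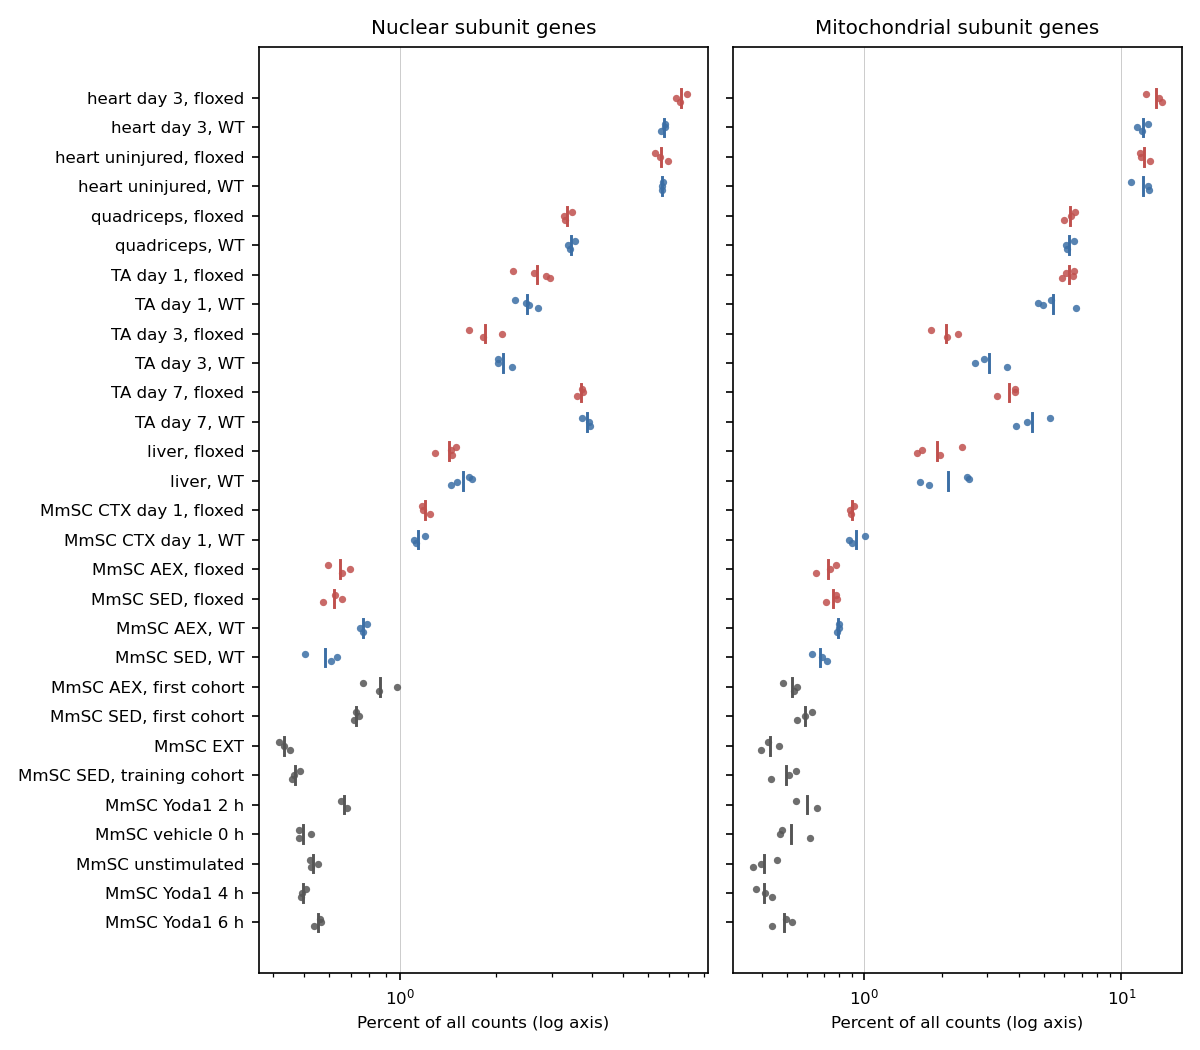
Percent of all counts taken by the 86 nuclear (left) and 13 mitochondrial (right) members, on log axes, with 1 point per library and a line at the group mean. Red marks floxed, blue WT of the Pdgfra-Cre mice and grey MmSCs with no Cre in their library names. Hearts lie highest, and MmSCs lie below every heart, quadriceps and TA library in both panels.

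Ndufs1, the iron-sulphur subunit at the entry of complex I (chromosome 1 from 63143596 to 63176833, minus strand, mm10), ranked the tissues alike. In WT it averaged 1151 ± 4.33 unscaled CPM in uninjured heart, 590.2 ± 14.0 in quadriceps, 164.7 ± 17.4 in liver and 62.2 ± 4.83 in SED MmSCs, without scaling between cohorts. In TA its WT mean was 313.6 ± 38.8 unscaled CPM at day 1, 293.6 ± 31.2 at day 3 and 591.4 ± 26.8 at day 7. In these values days 1 and 3 did not differ beyond their spread. mt-Co1, the catalytic core of complex IV (mitochondrial genome from 5328 to 6872), averaged 13338 ± 2056 unscaled CPM at day 1, 6702 ± 1428 at day 3 and 10570.3 ± 1795 at day 7 in WT TA. In floxed TA, mt-Co1 averaged 15285 ± 793 at day 1, 3728 ± 193 at day 3 and 8431 ± 486 at day 7. The TMM factors of WT TA were 1.02 to 1.09 at day 1, 1.17 to 1.26 at day 3 and 0.70 to 0.78 at day 7. With TMM scaling, the WT day 7 means were 790.4 CPM for Ndufs1 and 14209 CPM for mt-Co1, and floxed TA had 11119 CPM of mt-Co1. The order of days 1 and 7 for mt-Co1 in WT TA therefore depends on the scaling.

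Against liver, WT heart had 91 members higher and 2 lower of 94 tested, where 33.5% of all genes were higher and 27.6% lower and the median of all genes was 0.18. The median of the members was 1.36 on the log2 scale. Cox6a2 had 997.0, 991.8 and 1038 CPM in WT hearts, against 3.52, 3.79, 2.07 and 3.54 CPM in WT livers. Its partner Cox6a1 ran the other way, with 66.1, 78.4 and 73.0 CPM in hearts against 374.6, 411.0, 319.4 and 303.4 CPM in livers. The groups did not overlap for either gene, and Cox6a1 and Cox8a were the 2 lower members, with log2 fold changes of -2.28 and -1.21. Groups did not overlap for 94 of 94 members, 92 of them higher, as against 62.5% of all genes, 34.8% higher and 27.7% lower. Quadriceps against heart had 4 members higher and 47 lower, where 13.8% of genes were higher and 21.1% lower and the median of all genes was -0.22. Of the 4 higher members, mt-Co2, mt-Atp6 and mt-Co3 are among those with near-complete nuclear copies, and the last was Atp5e.

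In injured TA the respiratory chain share dipped at day 3 and was higher again at day 7. In WT, nuclear members took 2.51 ± 0.173% of counts at day 1 (n = 4), 2.10 ± 0.126% at day 3 and 3.86 ± 0.113% at day 7 (n = 3 each). In floxed TA the nuclear shares were 2.68 ± 0.308%, 1.85 ± 0.222% and 3.68 ± 0.0914% on the same days. Mitochondrial members took 5.42 ± 0.846%, 3.06 ± 0.473% and 4.48 ± 0.703% in WT, and 6.25 ± 0.323%, 2.08 ± 0.255% and 3.66 ± 0.317% in floxed TA. The ratio of mitochondrial to nuclear counts was thus lower at each later day: 2.36, 1.13 and 0.994 in floxed and 2.16, 1.46 and 1.17 in WT TA. In bulk tissue, fewer cells of a type and less RNA per cell cannot be told apart.

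Between days 1 and 3, 3 members rose and 48 fell in WT of 92 tested, where 14.1% of all genes rose and 12.6% fell. The count of 51 was 22 without WT day 3 replicate 1, 25 without WT day 3 replicate 2 and 28 without WT day 1 replicate 4. In floxed TA 3 rose and 82 fell, where 22% of genes rose and 22.6% fell. The 3 that rose were the same in both genotypes: Cox8a (log2 1.21 in floxed and 1.06 in WT), Cox6a1 (1.12 in floxed and 0.73 in WT) and Cox7a2l (0.36 in floxed and 0.62 in WT), a factor of supercomplex assembly. Between days 3 and 7, 88 members rose and 2 fell in each genotype, where 25.8% of genes rose and 27% fell in floxed, and 20.1% rose and 22.4% fell in WT TA. The median of the members was 1.68 in floxed and 1.52 in WT, and the 2 that fell in both were Cox6a1 and Cox8a. At day 1 against uninjured quadriceps, 2 WT members were higher and 85 lower, where 31.2% of genes were higher and 28% lower. At day 7 against uninjured quadriceps, a different muscle of a separate cohort, 3 WT members were higher and 18 lower, where 15.5% of genes were higher and 13.7% lower, and Cox6a1 (0.72) and Cox8a (0.60) led the higher ones.

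At day 3, floxed TA had less of the muscle isoforms of complex IV and of the mitochondrial transcripts than WT TA. Of 92 members, 12 were lower and none higher, where 2.61% of all genes were higher and 6.37% lower. Groups did not overlap for 29 of 92 members, 28 of them lower, as against 25% of all genes, 11.3% higher and 13.7% lower. The median was -0.99 over the 13 mitochondrial members and -0.24 over 79 nuclear members tested, against -0.02 over all genes. Cox6a2 (chromosome 7 from 128205435 to 128206387, minus strand) had 17.1, 58.3 and 48.1 CPM in floxed TA, against 101.7, 115.4 and 182.3 CPM in WT TA. The groups did not overlap, and the log2 fold change was -1.67 ± 0.31 (SE; adjusted p = 0.00143, edgeR). Its partner Cox6a1 had 146.4, 196.5 and 152.4 CPM in floxed TA, against 141.3, 137.6 and 122.5 CPM in WT TA. Every floxed library lay above every WT library, but the log2 fold change of 0.30 ± 0.16 was not called (adjusted p = 0.245, edgeR).

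Cox8b had 8.98, 33.9 and 28.8 CPM in floxed TA, against 60.5, 57.5 and 88.9 CPM in WT TA at day 3 (log2 -1.49 ± 0.31, adjusted p = 0.0037, edgeR). Cox7a1 had 8.12, 32.1 and 13.2 CPM in floxed TA, against 36.8, 40.1 and 58.3 CPM in WT TA (log2 -1.29 ± 0.32, adjusted p = 0.0142, edgeR). Neither gene's groups overlapped (nor did those of 25% of all genes), and floxed replicate 1 was lowest for all 3 muscle isoforms. Nuclear calls also fell on the F1 subunits Atp5d (log2 -0.63) and Atp5b (-0.57) of complex V. No member of complex II or III was called.

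Among mitochondrial members, mt-Nd5 had 1576, 810.2 and 1694 CPM in floxed TA, against 2986, 2951 and 4372 CPM in WT TA at day 3. Its groups did not overlap, nor did those of 25% of all genes (log2 -1.34 ± 0.27, adjusted p = 0.00294, edgeR). mt-Co1 had 2463, 3078 and 2840 CPM in floxed TA, against 5004, 4545 and 7132 CPM in WT TA (log2 -0.99 ± 0.23, adjusted p = 0.00747, edgeR). mt-Nd4, mt-Co2, mt-Nd6 and mt-Nd2 were also lower, at log2 -1.21, -1.18, -1.14 and -1.12. The most abundant mitochondrial member, mt-Nd1, was not called at -0.47, nor was mt-Cytb at -0.41. Without WT day 3 replicate 3, the highest WT library for all 3 muscle isoforms, mt-Nd5 and mt-Co1, 5 members were called in place of 12, and Cox6a2 then had a log2 fold change of -1.38.

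The floxed day 3 muscles also held less fibre RNA. All 12 muscle fibre markers were lower in floxed TA, with a median log2 fold change of -1.99, and their summed level was 9146 to 26236 unscaled CPM in floxed against 58340 to 97655 in WT TA. The 8 macrophage and monocyte markers summed to 10197 to 11979 in floxed against 7480 to 10030 unscaled CPM in WT TA, and none was called. The part of these cell markers in the lower respiratory chain counts was not tested. Of the related lists, 6 of 16 TCA cycle genes were lower, among them Ogdh (-0.77). Of 18 carrier and ubiquinone genes 2 were lower, Coq8a (-1.60) and Coq9 (-1.10), both of ubiquinone synthesis. Of 19 regulators 2 were lower: Ppargc1a (-1.41), a coactivator of mitochondrial biogenesis, and Esrrg (-1.27), an orphan nuclear receptor. None of 46 assembly factors was called, and of 78 mitochondrial ribosome genes 1 was higher (Mrpl20, 0.39).

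**Figure D2:**
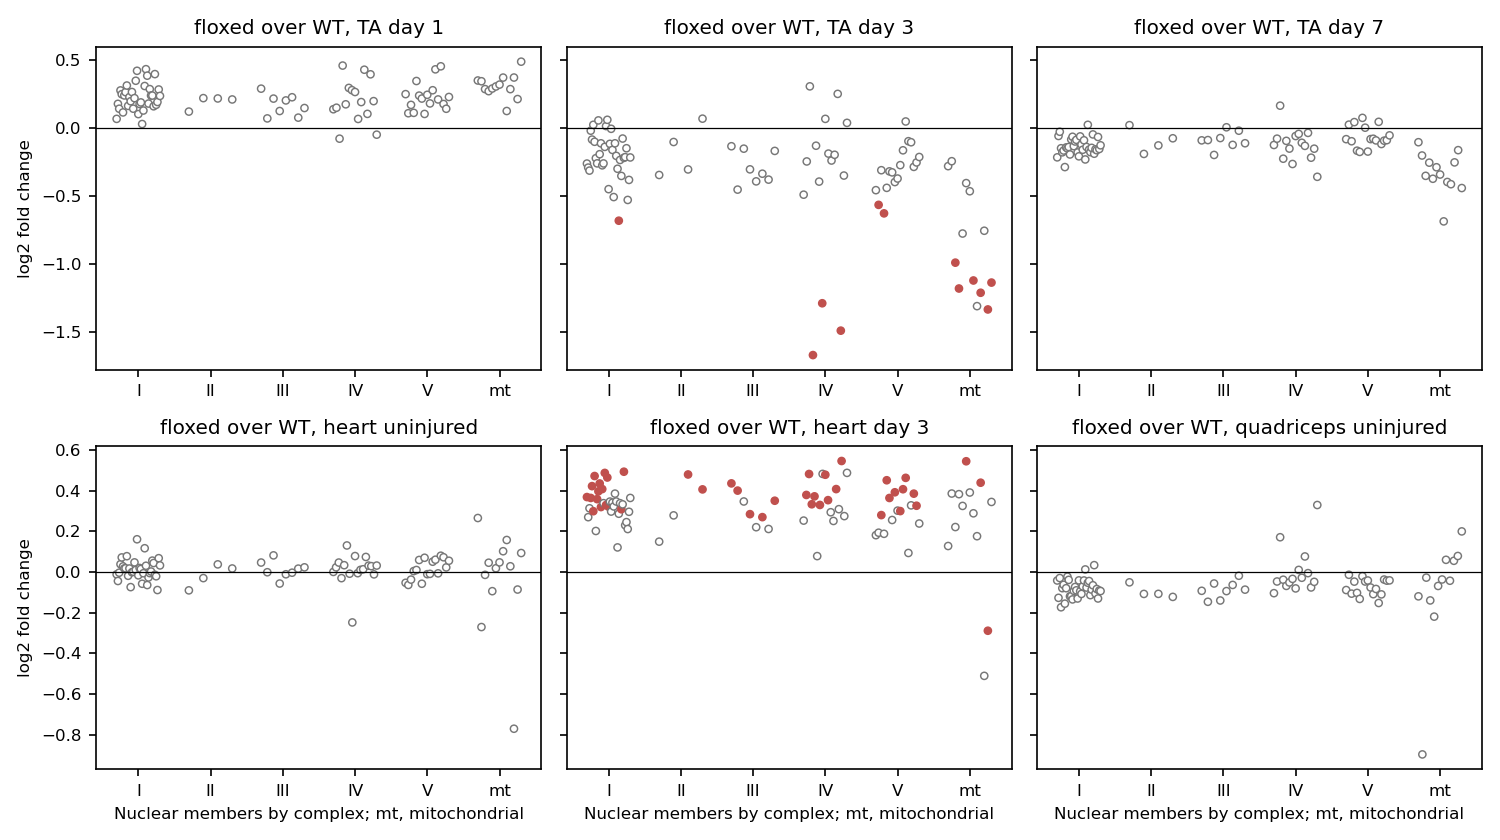
Log2 fold change of floxed over WT for every tested member, by complex, in TA on 3 days, in heart uninjured and at day 3, and in uninjured quadriceps. Filled points were called. At TA day 3 the called points lie below 0, down to -1.67, and at heart day 3 all but 1 lie above 0.

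The change between days 1 and 3 itself differed between genotypes for 12 of 92 members, each with a steeper fall in floxed TA, where the difference was positive for 1.26% of all genes and negative for 4.59%. The difference was -2.13 ± 0.40 for Cox6a2 (adjusted p = 0.00254, edgeR), -1.89 for Cox8b, -1.57 for Cox7a1 and -1.55 for mt-Nd5. Without WT day 3 replicate 3 it was called for 4 members, without WT day 1 replicate 2 for 7, and without floxed day 1 replicate 1 or floxed day 3 replicate 2 for 25. At day 1 no member differed between floxed and WT TA by edgeR or DESeq2 (5 at an unadjusted p under 0.05), where 0.0774% of genes were called. Between days 3 and 7 the change differed between genotypes for no member by edgeR and for 4 by DESeq2 (9 at an unadjusted p under 0.05), where 1.64% of genes were called. At day 7 none differed by either tool (1 at an unadjusted p under 0.05), where 0% of genes were called.

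As a share of its pair per exon length, Cox6a2 made up 19.6 ± 7.68% in floxed and 49.9 ± 9.47% in WT TA at day 3, with no overlap. At day 1 its share was 83.5% (78.6 to 86.3%) in floxed and 77.6% (73.2 to 84.0%) in WT TA, and at day 7 88.1 ± 2.83% in floxed and 90.7 ± 2.22% in WT TA. Cox8b fell to 15.5 ± 6.67% of its pair in floxed TA at day 3, against 39.6 ± 7.06% in WT, and Cox7a1 to 12.6 ± 4.76% against 29.1 ± 4.59%. In uninjured quadriceps the muscle isoforms of the Cox6a and Cox8 pairs took nearly the whole pair: Cox6a2 made up 95.9% in floxed and 96.4% in WT, and Cox8b 92.3% in floxed and 92.6% in WT. Cox7a1 stopped lower, at 55.2% in floxed and 54.4% in WT quadriceps. These shares are a description, with no test of their own.

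**Figure D3:**
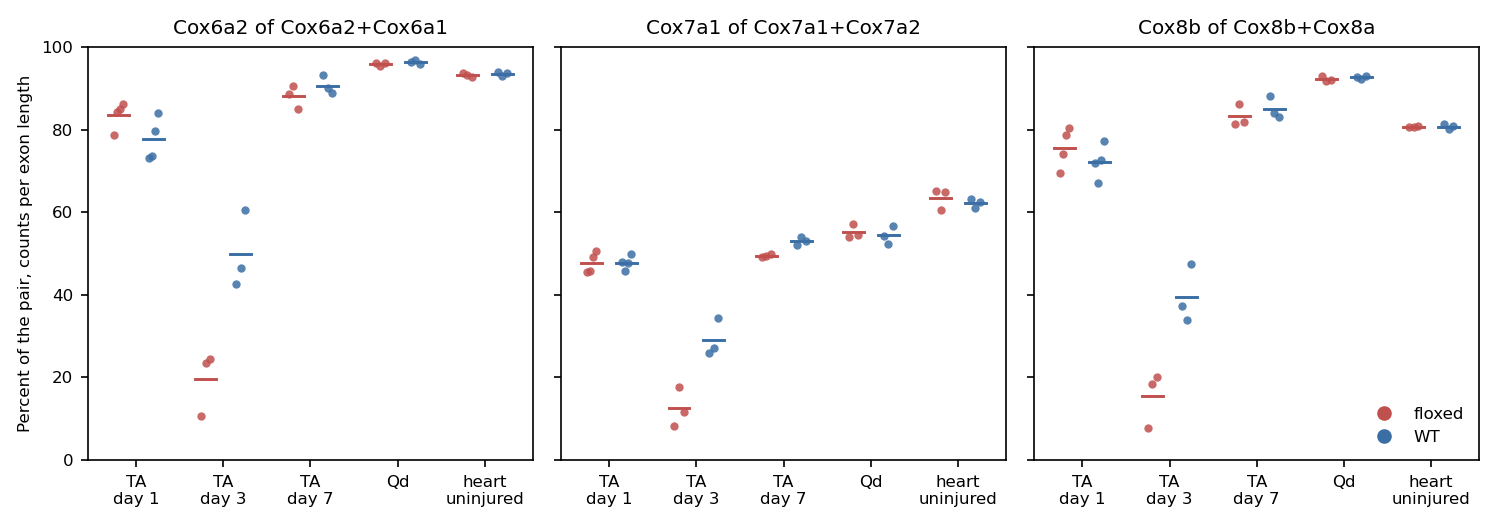
Share of the muscle isoform in 3 complex IV pairs, as percent of the pair's counts per exon length, in TA by day, quadriceps and uninjured heart. Points are libraries, lines group means, red floxed and blue WT. At TA day 3 the floxed libraries lie at 10.8 to 24.6% for Cox6a2, below the WT libraries at 42.6 to 60.6%.

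In hearts 3 days after CTX to skeletal muscle, respiratory chain members were modestly higher in floxed than in WT mice. Of 94 members, 43 were higher and 1 lower, where 1.58% of all genes were higher and 2.33% lower. All 81 nuclear members tested had a positive log2 fold change, with a median of 0.33 against -0.03 over all genes. Calls fell on 16 of 35 members of complex I, 2 of 4 of complex II, 5 of 8 of complex III, 9 of 17 of complex IV and 9 of 17 of complex V. Groups did not overlap for 80 of 94 members, 79 of them higher, as against 25.8% of all genes, 12.4% higher and 13.4% lower. The nuclear share of counts was 7.97, 7.31 and 7.54% in floxed hearts, against 6.79, 6.80 and 6.60% in WT hearts.

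Cox8b, the heart isoform of its pair, had 695.3, 547.0 and 612.6 CPM in floxed hearts, against 421.9, 423.7 and 425.2 CPM in WT hearts at day 3. All floxed libraries lay above all WT libraries (log2 0.55 ± 0.10, adjusted p = 0.014, edgeR). Ndufs6, an accessory subunit of complex I, had 427.1, 372.0 and 404.4 CPM in floxed hearts, against 266.1, 293.8 and 295.2 CPM in WT hearts (log2 0.49 ± 0.10, adjusted p = 0.024, edgeR). Sdhc, a membrane anchor of complex II, had 430.5, 357.9 and 357.1 CPM in floxed hearts, against 288.0, 262.3 and 271.2 CPM in WT hearts (log2 0.48). The adjusted p-values of the 44 calls lay between 0.0140 and 0.0497 (edgeR).

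The heart result depended on single libraries. Without WT day 3 replicate 2, 3 or 4, none of the 94 members was called, and without floxed day 3 replicate 3, 1 was called, whereas 39 were called without floxed replicate 1 and 62 without floxed replicate 2. Fold changes over all genes ran weakly against exon length (Spearman's rho -0.13 over 18066 genes), and with offsets that depend on gene length 25 members were called. Ttn, a fibre and heart marker with a very long transcript, was lower in floxed hearts at day 3 (log2 -1.16, adjusted p = 0.00448, edgeR), and of 8 cardiomyocyte markers Tnni3 was higher (0.41) and Ryr2 lower (-0.67). The fibre markers, Ttn among them, summed to 12956 to 16013 unscaled CPM in floxed against 20166 to 22012 in WT hearts. Apart from Ttn, no fibre marker was called. Acta1 (0.36), Ckm (0.19), Mb (0.05), Tnnt3 (0.16) and Pvalb (0.30) had positive log2 fold changes, and Atp2a1 (-0.53) a negative one. The part of transcript length and of these markers in the result was not tested beyond these values. In uninjured hearts no member was called by edgeR or DESeq2 (0 at an unadjusted p under 0.05), where 0% of genes were called. The difference between the genotype effects at day 3 and uninjured was called for no member by edgeR or DESeq2 (64 at an unadjusted p under 0.05), so the day 3 difference was not shown to exceed that of uninjured hearts.

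Floxed hearts at day 3 against uninjured floxed hearts had 47 members higher, where 2.05% of genes were higher and 2.7% lower. That count was 0 without uninjured floxed replicate 2, 1 without uninjured floxed replicate 3 and 16 without floxed day 3 replicate 3. In WT hearts the same comparison called none by edgeR or DESeq2 (0 at an unadjusted p under 0.05), where 0.103% of genes were called. In floxed against WT hearts at day 3, 11 of 80 mitochondrial ribosome genes, 4 of 47 assembly factors and 2 of 16 TCA cycle genes (Mdh2, 0.34, and Pdhb, 0.32) were higher, and Esrrg was lower (-0.70).

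The only member lower in floxed hearts at day 3 was mt-Nd5, the longest mitochondrial protein-coding gene and a proton-pumping subunit of complex I (mitochondrial genome from 11742 to 13565). It had 16632, 19251 and 18885 CPM in floxed hearts, against 23378, 21573 and 21929 CPM in WT hearts (log2 -0.29 ± 0.07, adjusted p = 0.0439, edgeR). mt-Cytb, which carries the quinone sites of complex III, was higher, with 19340.0, 25974 and 28707 CPM in floxed hearts, against 17880.5, 15584 and 17289 CPM in WT hearts (log2 0.54). Neither gene's groups overlapped. Of the mitochondrial counts, mt-Nd5 took 12.3 to 13.6% in floxed and 18.4 to 19.4% in WT hearts, with no overlap. mt-Cytb took 14.3 to 19.1% in floxed and 14.0 to 14.8% in WT hearts, and these ranges overlapped.

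**Figure D4:**
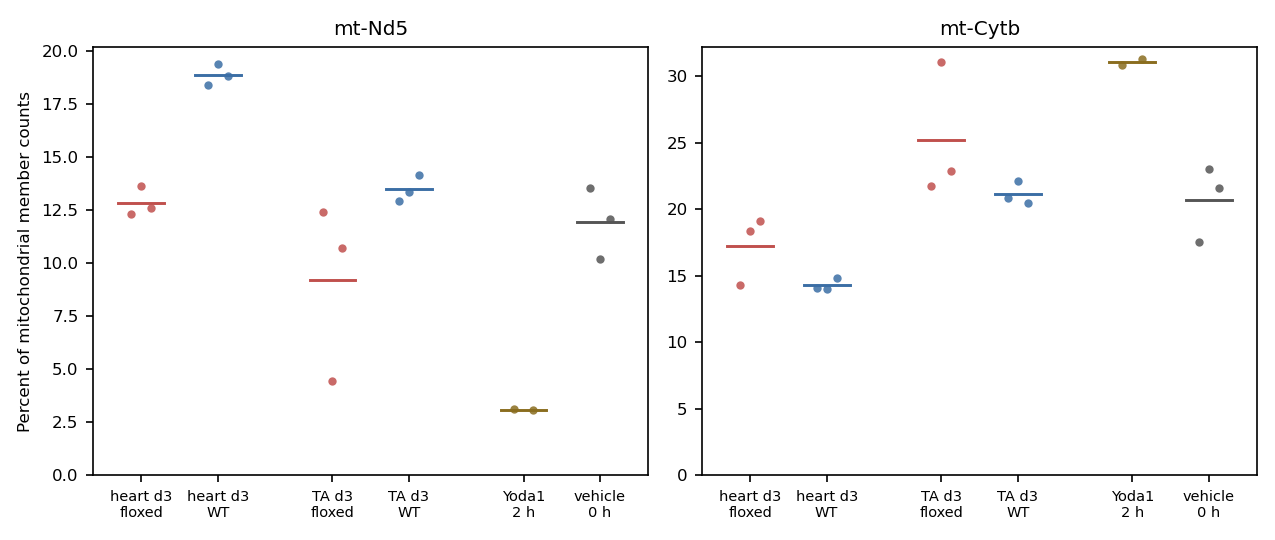
Percent of the mitochondrial members' counts taken by mt-Nd5 (left) and mt-Cytb (right), in heart and TA at day 3 in floxed and WT mice, and in MmSCs with Yoda1 for 2 h and vehicle at 0 h. Points are libraries and lines group means. mt-Nd5 lies lower in the first group of each pair, at 3.04 to 3.12% with Yoda1 against 10.2 to 13.5% with vehicle.

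Among the MmSC comparisons, cells after CTX against SED cells had the most members called, and also the most genes called. Against SED MmSCs of a separate cohort, WT MmSCs 1 day after CTX had 68 members higher and 1 lower of 87 tested, where 24.9% of all genes were higher and 25.2% lower. The median was 0.97 over 77 nuclear and 0.09 over 10 mitochondrial members, against -0.08 over all genes. Cox5a, a nuclear subunit of complex IV, had 112.1, 97.8 and 98.3 CPM after CTX, against 25.1, 37.5 and 34.0 CPM in SED MmSCs (log2 1.67 ± 0.18, adjusted p = 1.44e-05, edgeR). Uqcrq of complex III, Ndufa12 of complex I and Atp5g1, a c-ring gene of complex V, were higher by log2 1.58, 1.57 and 1.52. The cohort and the injury cannot be told apart in this comparison. Fold changes over all genes ran weakly against exon length (Spearman's rho -0.16 over 13037 genes), and with offsets that depend on gene length 66 members were called in place of 69.

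The lower member was Ndufa4l2, a paralog of Ndufa4 known as a hypoxia-induced gene, with 8.44, 7.66 and 5.07 CPM after CTX, against 38.0, 38.8 and 30.8 CPM in SED MmSCs. The groups did not overlap (log2 -2.34 ± 0.23, adjusted p = 1.01e-05, edgeR). The same held for 75 of 87 members, 71 of them higher and 4 lower, as against 59.8% of all genes, 30.1% higher and 29.7% lower. Per exon length Ndufa4l2 made up 2.64 to 3.82% of its pair after CTX, against 21.7 to 39.0% in SED MmSCs of WT mice. In the other MmSC groups the mean share ran from 16.2 to 36.4%, except 2.55% in floxed MmSCs after CTX, and in muscle, heart and liver it stayed at or below 3.67%. Of the mitochondrial members only mt-Nd1 (log2 1.19) and mt-Nd6 (1.25) were higher after CTX. Of related lists, 72 of 77 mitochondrial ribosome and 14 of 16 TCA cycle genes were higher and none lower. Of 10 stromal markers 7 were lower, with a median of -1.21, and their part in the result was not tested. Floxed and WT MmSCs after CTX did not differ in any member by edgeR or DESeq2 (3 at an unadjusted p under 0.05), where 1.79% of genes were called.

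Few members were called after acute exercise. In WT MmSCs of the cohort with both genotypes, 2 of 89 members were higher after AEX than in SED cells, where 0.587% of genes were higher and 0.405% lower, and 81 had a positive log2 fold change with a median of 0.33. Of all 14821 genes 7230 were positive, with a median of -0.01, and fold changes ran weakly against exon length (Spearman's rho -0.14 over 14591 genes). Groups did not overlap for 49 of 89 members, 48 of them higher, as against 19.2% of all genes, 10.9% higher and 8.31% lower. Atp5b, the catalytic beta subunit of complex V (chromosome 10 from 128083273 to 128090391, plus strand), had 935.4, 925.0 and 920.0 CPM after AEX, against 513.1, 609.7 and 636.5 CPM in SED MmSCs (log2 0.66 ± 0.16, adjusted p = 0.0496, edgeR). Ndufv1, the NADH-binding subunit of complex I, had 114.5, 116.1 and 130.3 CPM after AEX, against 66.4, 84.9 and 78.1 CPM in SED MmSCs (log2 0.65 ± 0.15, adjusted p = 0.0446, edgeR). Neither gene's groups overlapped, but no member was called once any 1 of the 6 libraries was left out, or with offsets that depend on gene length.

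In floxed MmSCs AEX called no member by edgeR or DESeq2 (2 at an unadjusted p under 0.05), where 0.162% of genes were called. The difference between the genotypes in the response to AEX was called for none by either tool (12 at an unadjusted p under 0.05), where 0% of genes were called. After AEX, floxed and WT MmSCs differed in no member by either tool (10 at an unadjusted p under 0.05), where 0% of genes were called. Groups did not overlap for 33 of 89 members, all lower in floxed, as against 13.7% of all genes, 6.25% higher and 7.42% lower. Over all genes, this comparison ran with exon length (Spearman's rho 0.14 over 14591 genes), whose part in the missing overlap was not tested. In SED MmSCs they also differed in none by either tool (2 at an unadjusted p under 0.05), where 0.00675% of genes were called. In the first AEX cohort edgeR called none of 86 members and DESeq2 1 (15 at an unadjusted p under 0.05), where 0.736% of genes were called, and without AEX replicate 1 edgeR called 7. The smallest p there was for Cox5a (log2 0.79, adjusted p = 0.102, edgeR). Training called none of 85 by either tool (9 at an unadjusted p under 0.05), where 0.484% of genes were called.

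Yoda1 for 2 h was followed by higher nuclear members and by lower mt-Nd5. Of 85 members, 21 were higher and 1 lower than with vehicle at 0 h, where 5.3% of genes were higher and 5.94% lower. The vehicle cells were taken at 0 h, so agonist and time in culture cannot be told apart. Ndufc1, an accessory subunit of complex I, had 57.4 and 44.7 CPM with Yoda1, against 13.4, 19.2 and 14.7 CPM with vehicle (log2 1.70 ± 0.29, adjusted p = 0.00574, edgeR). Ndufa13, also of complex I, had 172.4 and 178.8 CPM with Yoda1, against 57.6, 78.2 and 65.9 CPM with vehicle, and Sdhb, the iron-sulphur subunit of complex II, 131.4 and 141.0 against 53.1, 63.1 and 49.7 CPM. In all 3 the groups did not overlap. The same held for 64 of 85 members, 57 of them higher, as against 45.3% of all genes, 21.1% higher and 24.3% lower.

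mt-Nd5 had 178.6 and 192.1 CPM with Yoda1, against 653.2, 493.6 and 732.8 CPM with vehicle (log2 -1.76 ± 0.19, adjusted p = 0.000789, edgeR). mt-Cytb had 1763 and 1980 CPM with Yoda1, against 847.2, 1116 and 1311 CPM with vehicle (log2 0.78). mt-Co1 was not called (log2 -0.09). The count of 22 called members was 5, 11 or 6 without vehicle replicate 1, 2 or 3. Fold changes over all genes again ran weakly against exon length (Spearman's rho -0.15 over 12618 genes), and with offsets that depend on gene length 16 members were called in place of 22.

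At 4 h, 2 of 87 members were lower than in unstimulated MmSCs, Sdhd (log2 -0.48) and mt-Nd5 (-0.29), where 2.12% of genes were lower and 3.58% higher. At 6 h 4 were lower, Ndufa4l2 (-0.59), Ndufv3 (-0.54), Ndufa13 (-0.40) and Ndufa7 (-0.35), where 6.72% of genes were lower and 6.53% higher. Neither share of members stands clear of these backgrounds. At 4 h the count was 1 without Yoda1 replicate 3 and 4 without Yoda1 replicate 1. Ndufa13 and Ndufa7 were higher at 2 h and lower at 6 h, in separate experiments with different controls.

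Uninjured tissues showed no called difference between genotypes. Quadriceps gave 0 of 91 members by edgeR and DESeq2 (10 at an unadjusted p under 0.05), and liver 0 of 92 by both (1 at an unadjusted p under 0.05), where 0% of genes were called in each. In quadriceps the smallest p was for Uqcrc1, a core subunit of complex III (log2 -0.14), and in liver for Ndufb3 of complex I (-0.33). Quadriceps groups did not overlap for 29 of 91 members, 28 of them lower in floxed. Over all genes this share was 12.5%, with 6.37% higher and 6.09% lower. Quadriceps fold changes ran weakly with exon length (Spearman's rho 0.16 over 11702 genes), whose part in the missing overlap was not tested.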

How the data were processed

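The authors deposited read counts per gene for 90 libraries. Per the submitters' processing notes, STAR 2.7.3a and featureCounts were used with mm10; those sources do not give strandedness, the annotation release or how reads matching several places were handled. Members and gene lists were chosen with earlier results of these data known. Counts per library are given with the results and limit the precision of low genes. Samples were grouped by their labels; 12 columns of the MmSC cohort with both genotypes matched a group only, so their replicates carry letters.

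Fits were made in R 4.3.3 with edgeR 4.0.16 (limma 3.58.1), each cohort alone except for comparisons across cohorts. TA with quadriceps, quadriceps with heart and liver, and MmSCs after CTX with SED MmSCs were fitted jointly, on WT libraries. In each fit, genes passed filterByExpr (minimum count 10), libraries were scaled by TMM, and a robust quasi-likelihood fit gave p-values. Benjamini-Hochberg adjustment was made over all genes tested, in 32 comparisons. The scripts were tested on simulated data. Alternatives were DESeq2 1.42.0, RLE size factors, library sizes without mt- transcripts, no filter, each library left out, a replicate block, and, chosen after seeing the data, offsets that depend on gene length. Isoform shares used counts per base of union exon. Named members were Ndufs1, mt-Co1, the isoform pairs, the Sdh genes, the mitochondrial members and up to 4 called members per direction with the largest fold change and at least 10 CPM in the higher group; where none was called, those with the smallest p. From related lists up to 2 called genes per direction were named. Other members named beside a small count, and Ttn, Tnni3 and Ryr2, were chosen after their values were seen. Some results for single genes are not reported here.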

Additional observations from a re-analysis of the deposited data

Results flagged for a closer look

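In 6 of 116 checks of groups of 4 libraries, 1 library stood apart from the other 3, and chance gives about 1 in 20. In floxed livers, replicate 3 had 0.1178% of counts in complex II (others 0.1392 to 0.143%) and 0.4483% in nuclear complex V (others 0.5124 to 0.5204%). In floxed livers, replicate 1 had 13.88% of mitochondrial counts in mt-Nd5 (others 19.24 to 19.97%). In floxed TA at day 1, replicate 3 had 0.00221% of mitochondrial counts in mt-Nd4l (others 0.004708 to 0.005104%), a gene with few reads. In WT TA at day 1, replicate 4 had 16400.0 unscaled CPM of mt-Co1 (others 11980.0 to 12580.0), and replicate 2 had 21.97% of mitochondrial counts in mt-Cytb (others 19.16 to 19.57%).

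The change between days 1 and 3 in TA differed between floxed and WT mice for 12 members by the interaction term. The differences, floxed minus WT on the log2 scale, included -2.13 for Cox6a2, -1.89 for Cox8b, -1.63 for mt-Nd6, -1.57 for Cox7a1, -1.55 for mt-Nd5 and -1.50 for mt-Nd4. They were -1.49 for mt-Nd2, -1.45 for mt-Co2, -1.28 for mt-Co1, -1.07 for mt-Co3 and -0.74 for Atp5d.

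The chromosome 1 copies of mitochondrial genes, which are not members, had counts of their own over all libraries. Gm10925, the copy of mt-Atp6, had 16357 against 8406 for mt-Atp6, Gm28661 7807 against 7329 for mt-Co2, Gm28437 6306 against 5435 for mt-Co3 and Gm10222 1260 against 1098 for mt-Nd4l. Gm29216 had 13033 against 17085208 for mt-Co1, Gm28439 5008 against 3705442 for mt-Nd4 and Gm28438 647 against 17003 for mt-Nd3.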

How the results depend on the processing

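Direction was compared only for members named by the fold change or p-value rule, and none reversed in any alternative run. Counts of called members, and shares, were compared in size only. Counts of called members that moved by over 1.5 times were as follows. With DESeq2 they were 7 for AEX in WT MmSCs (2 by edgeR), 1 for the first AEX cohort (0), 20 for floxed against WT TA at day 3 (12), 20 for the interaction of genotype with days 1 to 3 (12) and 4 for that with days 3 to 7 (0). With no filter they were 2 for the first AEX cohort, 19 and 2 for the same interactions, 3 for the heart interaction (0), 13 for Yoda1 at 2 h (22) and 7 at 6 h (4). With length-dependent offsets they were 0 for AEX in WT MmSCs, 25 for hearts at day 3 (44), 27 for quadriceps against heart (51) and 38 for TA at day 7 against quadriceps (21). With RLE size factors they were 1 for AEX in WT MmSCs and 32 for quadriceps against heart. The cause was not tested.

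Replicate numbers did not pair the samples; with the replicate block 7 members were called for Yoda1 at 2 h and 2 for the heart interaction. Leaving out each library gave 0 to 0 for AEX in WT MmSCs, 0 to 7 for the first AEX cohort, 5 to 28 for Yoda1 at 2 h, 1 to 4 at 4 h and 3 to 5 at 6 h, and 65 to 72 for CTX in MmSCs. In TA it gave 5 to 14 at day 3, 22 to 52 for WT and 78 to 88 for floxed between days 1 and 3, 86 to 90 for WT and 89 to 90 for floxed between days 3 and 7, 4 to 25 and 0 to 1 for the interactions, and 14 to 26 at day 7 against quadriceps. It gave 0 to 62 for hearts at day 3, 0 to 60 for floxed hearts at day 3 against uninjured, 0 to 1 for the heart interaction, 90 to 93 for heart against liver and 41 to 45 for quadriceps against heart. Over named members, 729 values without 1 library kept their status as called or not called, 73 lost a call and 3 gained 1. Without the length correction 69 group means of the isoform shares moved by over 1 SD and 76 did not. With mt- transcripts left out of the denominator, 8 group means of the nuclear share moved by over 1 SD and 21 did not. Members with few reads limit what depth can show.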
